A study of Homo sapiens with 24 samples.

Results

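The genes described are 41 listed components of cell attachment to basement membrane: 10 integrin α chains, 6 integrin β chains, 10 laminin chains, 6 collagens, 4 linkers and proteoglycans, and 5 hemidesmosome plakins or other laminin receptors. They were chosen by symbol from the deposited count table, with at least 10 counts summed over the 24 libraries, which 40 of the 41 met among 28278 genes in all. COL4A1, with 20 counts, was the member closest to that minimum, and ITGA5, with 0 counts, was the symbol left outside. The span of ITGA5 on chromosome 12 is 100% covered by LOC102724050, and fragments over 2 genes went uncounted, so its 0 cannot be read as absence. A further 4 members had too few counts for the test (ITGA2 46, LAMA1 30, ITGB6 29 and COL4A1 20 counts in all), which left 36 members among 15642 genes tested.

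Messenger RNA was measured in TYUC-1, a human line from a neuroendocrine carcinoma of the esophagus that grows in suspension. The i-TAp63 line carries an inducible TAp63 and the i-DNp63 line an inducible ΔNp63, the 2 main forms of the squamous transcription factor p63. Both lines received doxycycline at 1 µg/ml for 0, 1, 3 or 6 days of a 6 day course and DMSO on the other days, with 3 libraries for each line and day. The day 0 groups therefore carry the construct and DMSO only, and doxycycline-treated cells without a construct were not analysed here. A treatment label also lists EPZ-6438, which blocks the chromatin enzyme EZH2, with the same number of days as doxycycline, whereas titles and induction labels name only the induction. Whether the inhibitor was present is not settled by the labels, and then its days and the days of induction cannot be told apart. The labels call the replicates biological without saying how cultures were separated, so the p-values speak only to how far these libraries vary, which may be technical.

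Integrins are pairs of an α and a β chain that span the membrane and bind matrix outside the cell. Laminins are trimers of an α, a β and a γ chain, and with the type IV collagen network, nidogens and the heparan sulfate proteoglycans perlecan and agrin they build the basement membrane sheet. In stratified epithelium, the tissue in which p63 marks the basal layer, integrin α6β4 with plectin, BP230 (from DST), collagen XVII and CD151 forms the hemidesmosome, which holds basal cells to laminin-332 and to anchoring fibrils of collagen VII.

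TP63 itself, with both isoforms summed, was at 2.9 to 4.94 CPM (counts scaled to library size with TMM factors) in the day 0 libraries of both lines. It was at 326 to 692 CPM in the induced TAp63 libraries and at 576 to 1030 CPM in the induced ΔNp63 libraries but for replicate 3 of ΔNp63 day 1, at 69.2 CPM. That library also held the fewest counts, 1530847 against 6375963 to 22019974 in the others, and lay at -193.9 on the first principal component against -17 to 24.95. Its summed erythroid markers (7 genes, led by HBG2) reached 2770 CPM against 51.4 CPM at most elsewhere. Tuft cell markers, led by POU2F3, summed to 362 to 423 CPM at day 0 and to 256 to 321 CPM at day 6. Fibroblast markers (7 genes, led by COL1A1, with THY1 at 0 in all libraries) summed to 11.3 to 20.3 CPM at day 0 and 21.7 to 27.7 CPM at day 3 of the TAp63 line. In the ΔNp63 line they summed to 14.3 to 20.1 and 22.9 to 34 CPM, so the sum was higher at day 3 in both lines. COL1A1, itself a matrix gene, made up most of it, at 32 of 34 CPM in replicate 1 of ΔNp63 day 3. COL3A1 was at 0.0823 CPM at most at ΔNp63 day 0 and at 0.627 to 1 CPM at day 3. PDGFRB was at 0.681 to 0.823 CPM and at 0.335 to 0.856 CPM, with overlap. Endothelial markers summed to 16.1 CPM at most. The immune list, led by LYZ, summed to 482 to 1420 CPM and was lower in the ΔNp63 line at day 6 (485 to 658 CPM) than at its day 0 (905 to 1090 CPM). The part of these marker levels in the results was not tested. In bulk RNA, fewer cells with a transcript and less transcript per cell cannot be told apart.

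Before induction the cells held transcripts for some chains of each complex and near none for others. CPM values are not adjusted for gene length, so levels are compared within a gene and not between genes. Among the integrins, ITGA6 (the α6 chain of laminin receptors) was at 176 to 214 CPM over the 6 day 0 libraries, ITGB1 (the β1 chain, the partner of most α chains) at 213 to 261 CPM, and ITGB4 (the β4 chain of the hemidesmosome) at 36.4 to 63.9 CPM. LAMA5, LAMB1 and LAMB2, which encode α5, β1 and β2 chains, lay at 105 to 189, 94.5 to 131 and 65.6 to 100 CPM. Among the γ chains LAMC1 was at 0.924 to 2.56 CPM and LAMC3 at 0.625 to 1.85 CPM. Among the type IV collagens COL4A5 (the α5 chain) was at 220 to 285 CPM and COL4A6 (the α6 chain) at 6.42 to 8.86 CPM. COL4A1 and COL4A2, the α1 and α2 chains of the most widespread network, had 4 and 25 counts in the 6 day 0 libraries together. At this depth COL4A1 stayed between 0 and 5 counts per group on every day, and no change in it was detectable. The uninduced lines did not differ in a called member: 0 of 36 passed, where 0.0128% of all tested genes did (edgeR had 1 member with an unadjusted p below 0.05, and DESeq2 called 0).

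**Figure D1:**
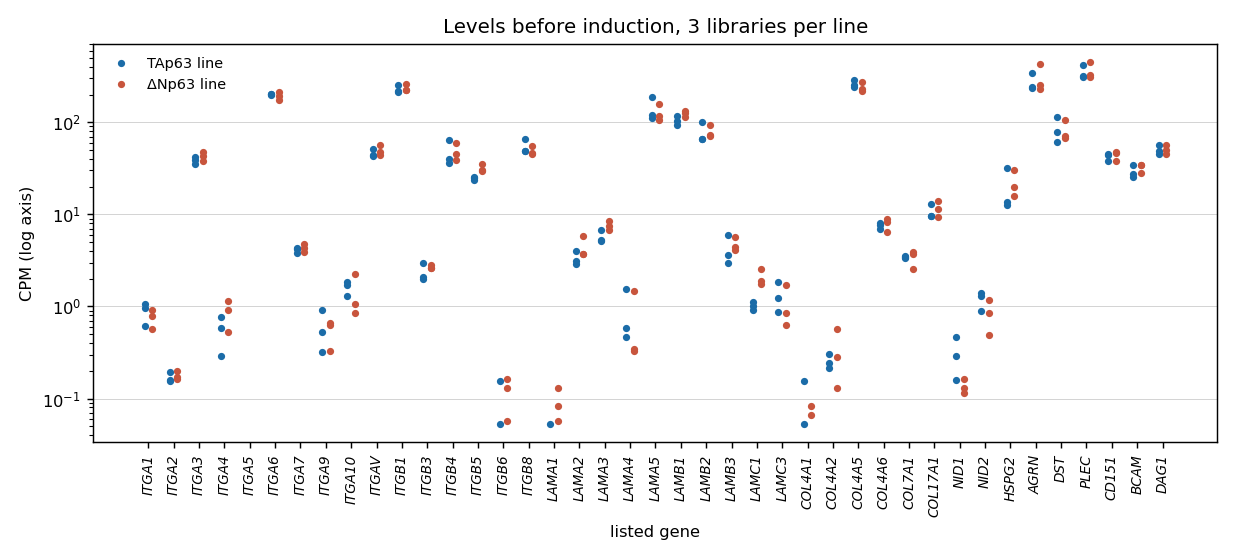
Level of each listed gene before induction in CPM on a log axis, 1 point per library, 3 libraries of the TAp63 line and 3 of the ΔNp63 line. Libraries at 0 are not drawn, so ITGA5 is empty, and COL4A1 lies below 0.2 while COL4A5 lies above 200; heights of different genes are not adjusted for length.

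Each line was then compared with its own day 0 by edgeR's quasi-likelihood test over all 24 libraries, and a gene is called where its Benjamini-Hochberg adjusted p is under 0.05. Replicates of the same number deviated together and the library above stood apart from the rest, so each comparison is also given from a blocked 23-library fit, which adds the replicate number as a block and leaves out that library. That fit calls many more genes, so its member counts are set beside its own background.

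In the ΔNp63 line, the laminin receptor BCAM and the linker NID1 rose at day 3 and the integrin chain ITGA6 fell. At day 6 BCAM rose further, LAMB1 and ITGB5 rose with it, and ITGA6 was again lower. The 3 members called at day 3 are 8.33% of 36, where 2.2% of all genes were called, and the 4 at day 6 are 11.1%, where 2.03% were. With the replicate block, 5 members were called at day 3 and 6 at day 6, against 6.89% and 4.56% of all genes. In the blocked 23-library fit 15 members were called at day 3 (12 higher, 3 lower) and 14 at day 6 (12 higher, 2 lower). That is 41.7% and 38.9% of the members, beside 23.5% and 14.1% of all genes.

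With TAp63 the only called member was ITGA7, which rose at day 6 (1 of 36, or 2.78%, against 0.441% of all genes). At day 3 no member was called by edgeR, where 0.435% of all genes were, 4 members were under an unadjusted p of 0.05, and DESeq2 called 0. With the replicate block BCAM was called at day 3 and BCAM and ITGA7 at day 6, against 0.901% and 0.78% of all genes. In the blocked 23-library fit 7 members were called at day 3 (6 higher, 1 lower) and 9 at day 6 (8 higher, 1 lower). These are 19.4% and 25% of the members, beside 4.57% and 3.6% of all genes.

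After 1 day no member was called in either line. With TAp63, 0.121% of all genes were called by edgeR, with 0 members under an unadjusted p of 0.05 and 0 called by DESeq2, and the blocked 23-library fit called 0 members and 0.887% of genes. With ΔNp63, 0.0959% of genes were called by edgeR, 8 members were under an unadjusted p of 0.05, and the blocked 23-library fit, with 2 libraries left at day 1, called 0 members and 0.849% of genes. DESeq2 called COL4A2, ITGA6 and HSPG2 there, where it called 3.34% of genes. The library that stands apart held 11.3, 61.9 and 365 CPM of these against 0.362, 136 to 159 and 24.3 to 32 CPM in the other 2 libraries of day 1. For COL4A2 and HSPG2 those 2 libraries overlapped day 0, while for ITGA6 they lay below its 176 to 214 CPM. ITGA6 at TAp63 day 1, at 133 to 196 CPM, also lay below its day 0, at 197 to 202 CPM, and was not called.

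**Figure D2:**
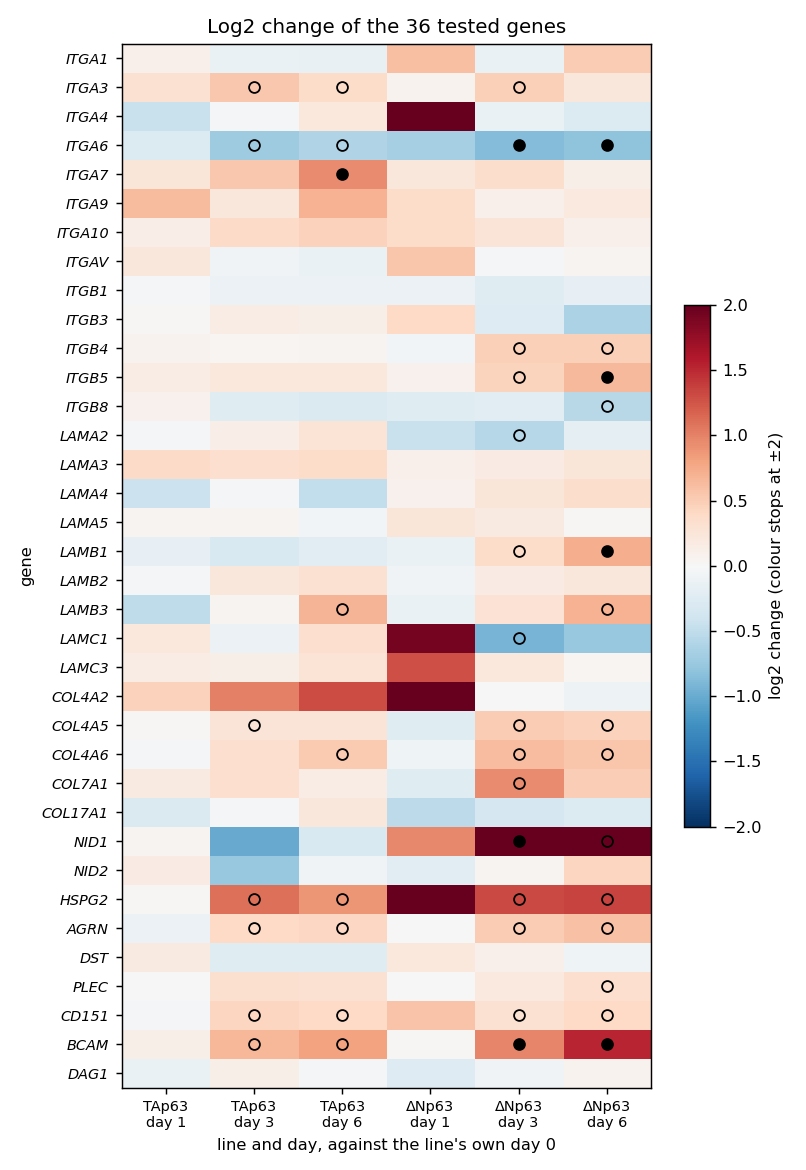
Log2 change of the 36 tested genes against the line's own day 0, with the colour stopped at ±2. Filled circles mark the 8 calls of the 24-library fit and open circles the further calls of the blocked 23-library fit; the strong colours at ΔNp63 day 1 carry no circle.

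Integrin α chains split. ITGA6 (chromosome 2, 172427336 to 172506458, plus strand; gene positions are hg38 as in the count table) was lower in both lines and ITGA7 (chromosome 12, 55684570 to 55712408, minus strand; the α7 chain, a laminin receptor best known from muscle) rose with TAp63. In the ΔNp63 line ITGA6 was at 214, 176 and 193 CPM at day 0, at 98.4, 113 and 107 CPM at day 3 and at 105, 112 and 115 CPM at day 6. Every library of days 3 and 6 lay below every library of day 0. The log2 change was -0.87 ± 0.20 (SE, n = 3 per group; adjusted p = 0.0254) at day 3 and -0.81 ± 0.20 (adjusted p = 0.0394) at day 6. Both calls were lost when any 1 of the 6 compared libraries was left out, with adjusted p up to 0.121 at day 3 and 0.177 at day 6, while the log2 change stayed between -0.94 and -0.74. The day 6 call was also lost without a filter on low counts (adjusted p = 0.0552).

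ITGA6 in the TAp63 line was at 202, 197 and 201 CPM at day 0, at 117, 125 and 123 CPM at day 3 and at 148, 117 and 130 CPM at day 6, again without overlap. Its log2 change of -0.72 ± 0.20 at day 3 was not called in the 24-library fit (adjusted p = 0.253) and was called in the blocked 23-library fit (adjusted p = 1.64e-05), as was day 6 (-0.60 ± 0.20, adjusted p = 0.573 and 0.000158). ITGA6-AS1, an antisense gene with 0 counts, covers 2.22% of the ITGA6 span. Fragments in that stretch were counted for neither.

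ITGA7 was at 4.16, 4.3 and 3.77 CPM at day 0 of the TAp63 line and at 8.14, 7.19 and 8.24 CPM at day 6, a 1.93-fold higher mean (log2 0.95 ± 0.19, adjusted p = 0.0234). The groups did not overlap, and day 3, at 5.69 to 6.16 CPM, lay between them. The call was lost without any 1 of the 6 compared libraries (adjusted p up to 0.206), without a filter on low counts (adjusted p = 0.0511) and with only these libraries in the fit (adjusted p = 0.0581). ITGA7 in the ΔNp63 line was at 3.86 to 4.77 CPM at day 0 and at 3.9 to 5.53 CPM at day 6, and the ranges overlapped. The difference between the lines was not called in either fit (adjusted p = 0.832 and 0.053).

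ITGA3, the α3 chain of another laminin receptor, was at 35.3 to 41.6 CPM at day 0 of the TAp63 line and at 54.4 to 58.7 CPM at day 3. With ΔNp63 it was at 37.6 to 48.1 and at 53.4 to 68.9 CPM. In neither line did the day 0 and day 3 ranges overlap. The log2 changes of 0.54 ± 0.24 and 0.48 ± 0.24 were not called (adjusted p = 0.972 and 0.433) and were called in the blocked 23-library fit (adjusted p = 0.00165 and 0.00106). ITGAV, the α chain of vitronectin and fibronectin receptors, was at 43 to 57.1 CPM at day 0 and at 35 to 56.3 CPM at day 6.

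Among the β chains ITGB5 (chromosome 3, 124761949 to 124901411, minus strand), the β5 partner of αV, rose with ΔNp63. It was at 35.4, 30.6 and 29.8 CPM at day 0, at 43.2, 41.4 and 45.4 CPM at day 3 and at 50.3, 42.6 and 57.5 CPM at day 6. All 6 later libraries lay above the 3 of day 0. The log2 change of 0.65 ± 0.14 at day 6 was called (adjusted p = 0.0161) and that of 0.44 ± 0.14 at day 3 was not (adjusted p = 0.136), though it was with the replicate block (adjusted p = 0.0359). The day 6 call was lost without ΔNp63 day 0 replicate 2 or 3 or day 6 replicate 1 or 3, with adjusted p up to 0.11. ITGB5 in the TAp63 line was at 23.6 to 25.2 CPM at day 0, at 25.8 to 32.4 CPM at day 3 and at 26.6 to 29.9 CPM at day 6. There too every later library of these days lay above those of day 0. Neither fit called the change at day 3 or at day 6 (log2 0.21 ± 0.15, adjusted p = 1 at day 6 over 24 libraries).

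ITGB4 shows the pull of the replicate number: replicate 1 was the highest at ΔNp63 day 0 (60.1 CPM against 45.3 and 39), day 3 (82.8 against 59.1 and 58.6) and day 6 (77.8 against 55 and 66.8). Every replicate was higher at days 3 and 6 than its own number at day 0, although the group ranges overlapped. The log2 changes of 0.47 ± 0.31 and 0.47 ± 0.31 were not called (adjusted p = 0.633 and 0.824), and the blocked 23-library fit called both (adjusted p = 0.00317 and 0.00624). ITGB4 in the TAp63 line was at 36.4 to 63.9 CPM at day 0 and 43.6 to 54.3 CPM at day 6, within the same range. ITGB8, another partner of αV, was at 45.7 to 54.7 CPM at ΔNp63 day 0 and at 30 to 36.7 CPM at day 6, without overlap. Its log2 change of -0.56 ± 0.23 was not called in the 24-library fit (adjusted p = 0.39) and was called in the blocked 23-library fit (adjusted p = 0.0138) and with only the compared libraries in the fit. ITGB1 stayed at 183 to 261 CPM over all 24 libraries, and none of its comparisons was called in either fit.

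BCAM (chromosome 19, 44809059 to 44821421, plus strand) had the lowest adjusted p of the members. It encodes the Lutheran glycoprotein, a receptor for the laminin α5 chain. In the ΔNp63 line it was at 34.4, 34.2 and 28.2 CPM at day 0, at 70.4, 59.8 and 59.3 CPM at day 3 and at 105, 85.9 and 85.9 CPM at day 6. The 3 days did not overlap, and the libraries of day 1, at 21.3 to 36.6 CPM, lay around those of day 0. The mean was 1.96-fold higher at day 3 (log2 0.97 ± 0.18, adjusted p = 0.00421) and 2.87-fold higher at day 6 (log2 1.52 ± 0.18, adjusted p = 3.01e-05). Both calls held in every alternative setting tried.

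BCAM in the TAp63 line was at 34, 27.2 and 25.6 CPM at day 0, at 43.7, 49.1 and 44.3 CPM at day 3 and at 52.2, 49.5 and 49 CPM at day 6. These groups did not overlap with day 0 either. The log2 changes of 0.67 ± 0.18 and 0.80 ± 0.18 were not called in the 24-library fit (adjusted p = 0.213 and 0.0596) and were called with the replicate block (adjusted p = 0.0125 and 0.00251).

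Of the other hemidesmosome parts and laminin receptors, none was called in the 24-library fit. CD151, a tetraspanin that binds α3 and α6 integrins, was at 37.6 to 45.2 CPM at TAp63 day 0 and 49.8 to 61.3 CPM at day 3. In the ΔNp63 line it was at 37.7 to 47.3 CPM at day 0 and at 47.9 to 63.8 CPM at day 6, and neither pair of ranges overlapped. The blocked 23-library fit called it at days 3 and 6 of both lines, with log2 changes of 0.42, 0.40, 0.30 and 0.40. The library that stands apart held 114 CPM of CD151, the highest of the 24.

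PLEC, which encodes plectin, was at 450, 325 and 311 CPM at ΔNp63 day 0 and 556, 346 and 469 CPM at day 6, with overlap between the days but every replicate above its own number. Its log2 change of 0.34 ± 0.21 was called in the blocked 23-library fit only (adjusted p = 0.785 and 0.019). PLEC in the TAp63 line was at 423, 317 and 310 CPM at day 0 and at 526, 369 and 403 CPM at day 6. Every replicate was above its own number there as well, with overlap between the days, and neither fit called it. DST, whose transcripts include that of BP230, was at 105, 67 and 70.2 CPM at day 0 and at 100, 74 and 53.7 CPM at day 6 (log2 -0.08 ± 0.29, adjusted p = 1). COL17A1, the hemidesmosome collagen, was at 9.45 to 13.9 CPM at day 0 and 7.62 to 12.5 CPM at day 6 of the ΔNp63 line, and at 9.55 to 12.8 and 11.8 to 12.8 CPM in the TAp63 line. Both pairs of ranges overlapped, with log2 changes of -0.28 ± 0.25 and 0.23 ± 0.25. DAG1, which encodes the matrix receptor dystroglycan, stayed at 30.6 to 65.5 CPM over all libraries.

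**Figure D3:**
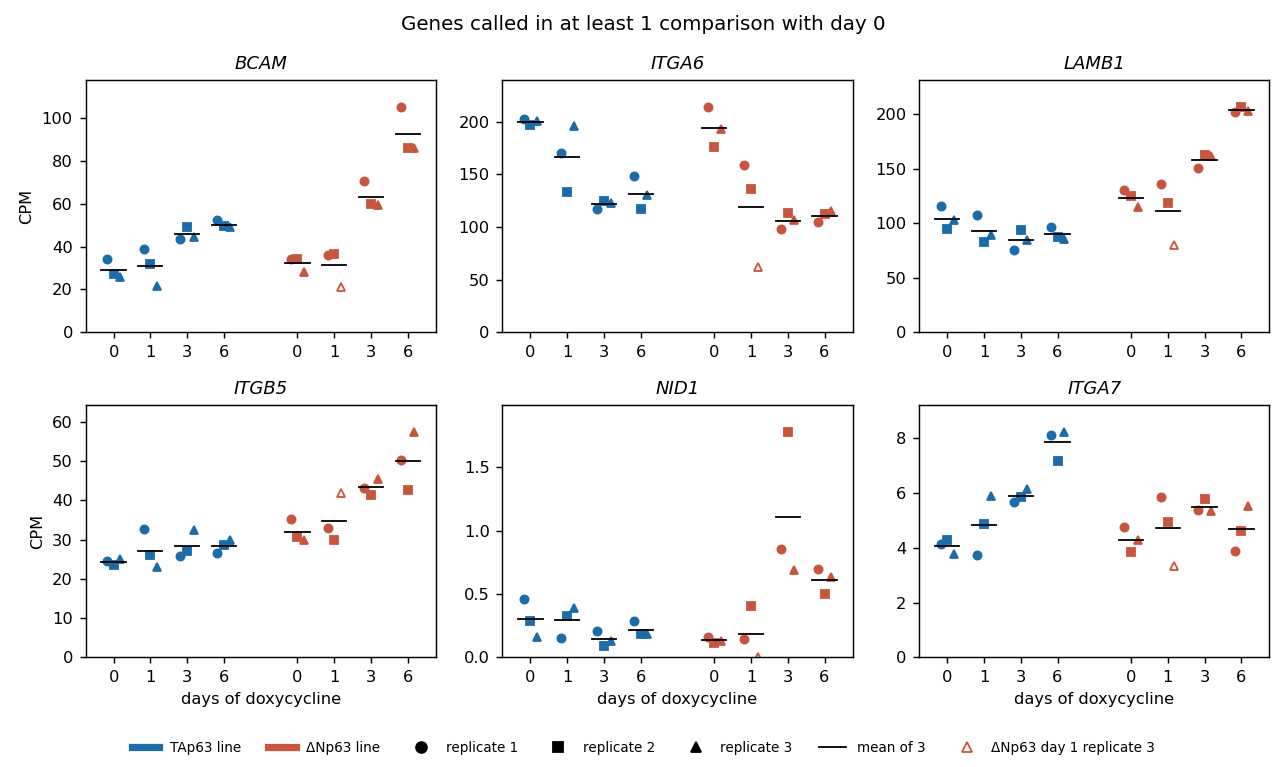
CPM of the 6 genes called in at least 1 comparison with day 0, by line and day, 1 point per library with its replicate number as the marker and a bar at the mean of 3. BCAM, LAMB1 and ITGB5 climb in the ΔNp63 line, ITGA6 drops in both lines, NID1 stays under 2 CPM, and ITGA7 is highest at TAp63 day 6.

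LAMB1 (chromosome 7, 107923799 to 108003161, minus strand), the β1 chain of laminins, rose with ΔNp63 at day 6 and was not called with TAp63. It was at 131, 125 and 115 CPM at ΔNp63 day 0, at 151, 163 and 162 CPM at day 3 and at 202, 207 and 203 CPM at day 6. The days did not overlap, and the 3 libraries of day 6 were the highest of the 24. The mean was 1.65-fold higher at day 6 (log2 0.72 ± 0.15, adjusted p = 0.00767), a call lost without ΔNp63 day 0 replicate 3 (adjusted p = 0.0585). At day 3 the log2 change of 0.36 ± 0.14 was called in the blocked 23-library fit only (adjusted p = 0.28 and 0.00383). LAMB1 in the TAp63 line was at 116, 94.5 and 103 CPM at day 0 and at 97.2, 87.7 and 85.9 CPM at day 6, with overlap (log2 -0.21 ± 0.15, adjusted p = 1).

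LAMA3 and LAMB3, which encode chains of laminin-332, were not called in the 24-library fit. LAMA3, the α3 chain, was at 6.81 to 8.4 CPM at ΔNp63 day 0 and 8.27 to 9.64 CPM at day 6, with overlap (log2 0.24 ± 0.25). LAMB3, the β3 chain, was at 4.45, 5.73 and 4.07 CPM at ΔNp63 day 0 and at 9.97, 6.76 and 6.16 CPM at day 6. With TAp63 it was at 6.01, 3 and 3.66 CPM at day 0 and at 6.28, 6.69 and 6.67 CPM at day 6. Neither pair of groups overlapped, and the log2 changes of 0.69 ± 0.26 and 0.68 ± 0.27 were called in the blocked 23-library fit only (adjusted p = 0.0247 and 0.0458).

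LAMC1 and LAMA2 were lower at ΔNp63 day 3 in the blocked 23-library fit only. LAMC1, the γ1 chain, was at 1.89, 2.56 and 1.77 CPM at day 0 and at 0.978, 1.28 and 1 CPM at day 3 (log2 -0.93 ± 0.67, adjusted p = 0.687 and 0.0221). In the library that stands apart it was at 25.3 CPM. LAMA2, the α2 chain, was at 3.68 to 5.76 CPM at day 0 and at 2.63 to 3.24 CPM at day 3 (log2 -0.56 ± 0.24, adjusted p = 0.328 and 0.0159). The laminin chains as a list had 1 called of 9 tested at ΔNp63 day 6 and a median log2 change of 0.22, beside -0.01 over all genes tested.

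None of the collagens was called in the 24-library fit. The 5 tested had median log2 changes of 0.51 at day 3 and 0.46 at day 6 of the ΔNp63 line, beside -0.01 over all genes tested on both days. COL4A5 was at 220, 230 and 273 CPM at ΔNp63 day 0, at 278, 373 and 378 CPM at day 3 and at 298, 339 and 357 CPM at day 6, without overlap with day 0. COL4A6 was at 6.42, 8.86 and 8.2 CPM, then at 9.11, 15.1 and 11.9 CPM and at 8.81, 12.8 and 13.1 CPM. Its day 6 range overlapped day 0 by 1 library, and within each replicate number days 3 and 6 were above day 0.

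The log2 changes at ΔNp63 days 3 and 6 were 0.51 ± 0.22 and 0.46 ± 0.22 for COL4A5 and 0.62 ± 0.30 and 0.55 ± 0.30 for COL4A6. None was called in the 24-library fit, with adjusted p from 0.335 to 0.67, and all 4 were called in the blocked 23-library fit, with adjusted p from 1.78e-05 to 0.00299. In the TAp63 line that fit called COL4A5 at day 3 (log2 0.26, adjusted p = 0.0465) and COL4A6 at day 6 (log2 0.55, adjusted p = 0.00937). The library that stands apart was the lowest of the 24 for both genes, at 101 and 1.33 CPM.

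COL4A5 and COL4A6 lie head to head on chromosome X, with 379 bases between the starts annotated in the count table (COL4A6 at 108439458 on the minus strand, COL4A5 at 108439838 on the plus strand). COL4A1 and COL4A2 lie head to head on chromosome 13 with 126 bases between them. The RefSeq promoter window of COL4A5 shares 121 bases with a window of COL4A6, shown here in capitals because both genes read away from them. A further COL4A6 window, at chrX:108438373-108438672, does not overlap the COL4A5 window. Which COL4A6 start these cells use was not tested. Each line gives the 250 bases before the start, 5′ to 3′ on the gene's own strand in GRCh38.p14, COL4A5 at chrX:108439588-108439837 (plus) and COL4A6 at chrX:108439459-108439708 (minus).
COL4A5: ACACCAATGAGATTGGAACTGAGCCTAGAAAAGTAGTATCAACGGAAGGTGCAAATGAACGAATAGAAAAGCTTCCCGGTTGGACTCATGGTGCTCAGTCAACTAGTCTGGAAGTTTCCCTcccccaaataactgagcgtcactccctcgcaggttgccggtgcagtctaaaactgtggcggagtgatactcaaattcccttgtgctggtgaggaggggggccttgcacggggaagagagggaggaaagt
COL4A6: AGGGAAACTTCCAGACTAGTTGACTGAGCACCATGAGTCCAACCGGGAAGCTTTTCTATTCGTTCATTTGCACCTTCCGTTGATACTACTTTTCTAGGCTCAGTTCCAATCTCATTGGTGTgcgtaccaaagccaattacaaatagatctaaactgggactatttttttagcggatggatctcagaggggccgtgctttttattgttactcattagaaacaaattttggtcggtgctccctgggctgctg
The capitals of COL4A6 are the reverse complement of those of COL4A5.

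Promoter windows of 300 bases, from 250 before to 50 after a start, were found for 31 of the 41 members, with 43 windows in all (RefSeq, GRCh38.p14). They were searched for the p53-family half-site, a consensus of 10 letters that reads the same on both strands, and for CATG, which also reads the same on both and lies within some of the half-sites. The half-site was in 1 of the 43 windows, or 2.33%, beside 6.63% of all 35116 windows in the table. CATG was in 20 of 43, or 46.5%, beside 54.9% of all. The single half-site was before COL17A1, a member that was not called. The windows of BCAM and LAMB1, called at ΔNp63 day 6, held none. A match is a description of letters and not of binding. The 250 bases before the start are printed for these 3 genes, with the half-site of COL17A1 and the CATG of LAMB1 in capitals: COL17A1 at chr10:104085881-104086130 (minus), LAMB1 at chr7:108003162-108003411 (minus) and BCAM at chr19:44808809-44809058 (plus), all in GRCh38.p14.
COL17A1: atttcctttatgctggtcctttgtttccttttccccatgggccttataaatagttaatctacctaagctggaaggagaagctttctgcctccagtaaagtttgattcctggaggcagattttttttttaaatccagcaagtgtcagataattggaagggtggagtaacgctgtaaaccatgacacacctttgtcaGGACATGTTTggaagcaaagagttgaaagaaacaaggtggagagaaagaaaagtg
LAMB1: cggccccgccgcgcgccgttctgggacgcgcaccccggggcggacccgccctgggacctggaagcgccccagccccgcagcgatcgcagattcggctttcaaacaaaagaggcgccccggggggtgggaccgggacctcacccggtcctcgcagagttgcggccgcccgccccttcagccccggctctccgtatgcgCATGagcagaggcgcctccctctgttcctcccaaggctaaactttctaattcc
BCAM: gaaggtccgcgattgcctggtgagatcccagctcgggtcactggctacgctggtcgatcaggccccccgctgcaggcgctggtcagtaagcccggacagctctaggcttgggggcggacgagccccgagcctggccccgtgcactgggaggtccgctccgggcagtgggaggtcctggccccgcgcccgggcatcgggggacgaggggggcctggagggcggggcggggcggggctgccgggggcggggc
The BCAM stretch has no CATG before this start.

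COL7A1, which encodes the collagen of anchoring fibrils, was at 3.87, 2.56 and 3.68 CPM at ΔNp63 day 0, at 5.93, 7.08 and 6.46 CPM at day 3 and at 5.69, 4.53 and 3.79 CPM at day 6. Day 3 lay above day 0 in every library and day 6 overlapped it. The log2 change of 0.95 ± 0.36 at day 3 was not called in the 24-library fit (adjusted p = 0.225). It was called in the blocked 23-library fit (adjusted p = 0.0016), without ΔNp63 day 1 replicate 3 alone (adjusted p = 0.0216) and with only the compared libraries in the fit. COL4A2 was at 0.122 to 0.545 CPM at days 3 and 6 of the ΔNp63 line and at 0.131 to 0.576 CPM at its day 0, and reached 11.3 CPM in the library that stands apart. In the TAp63 line it had 11, 14, 16 and 25 counts at days 0, 1, 3 and 6 (log2 1.30 ± 1.10 at day 6, adjusted p = 1).

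**Figure D4:**
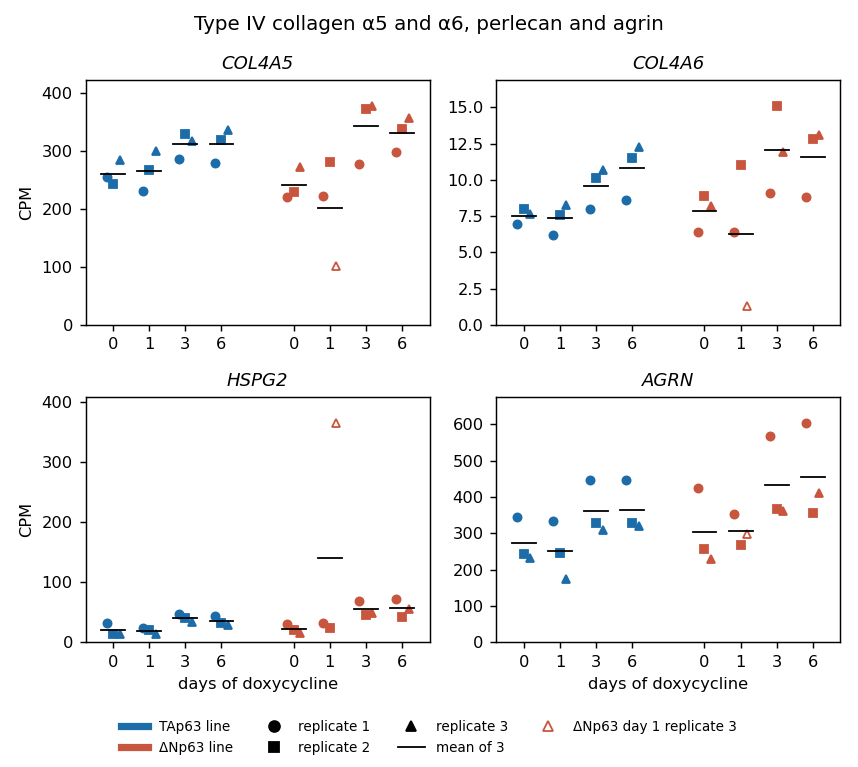
CPM of COL4A5, COL4A6, HSPG2 and AGRN by line and day, 1 point per library with its replicate number as the marker and a bar at the mean of 3. Replicate 1 is the lowest for COL4A6 and the highest for AGRN at days 0, 3 and 6 of both lines, and the open triangle, ΔNp63 day 1 replicate 3, is the lowest for both collagens and the highest for HSPG2.

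Among the linkers and proteoglycans NID1 (chromosome 1, 235975832 to 236065090, minus strand), which encodes nidogen-1 that joins laminin to the collagen IV network, rose with ΔNp63 from a level near 0. The 3 libraries together held 6 counts at day 0, 57 at day 3 and 20 at day 6. As CPM these were 0.165, 0.114 and 0.131 at day 0, 0.856, 1.78 and 0.69 at day 3 and 0.701, 0.503 and 0.632 at day 6, and neither later day overlapped day 0. The log2 change was 2.97 ± 0.52 at day 3 (adjusted p = 0.00219), a call that no alternative setting ended. That at day 6, 2.11 ± 0.56, was not called (adjusted p = 0.0563) and was called with the replicate block (adjusted p = 0.0362). NID1 in the TAp63 line had 12, 12, 5 and 9 counts at days 0, 1, 3 and 6. NID2, which encodes nidogen-2, was at 0.494 to 1.39 CPM at day 0 and 0.834 to 1.63 CPM at day 6 of the lines, with overlap.

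HSPG2, which encodes perlecan, was at 30.5, 19.8 and 15.7 CPM at ΔNp63 day 0, at 69.3, 45.7 and 48.8 CPM at day 3 and at 71.2, 42.2 and 55 CPM at day 6, with no overlap with day 0. In the TAp63 line it was at 31.9, 13.7 and 12.7 CPM at day 0 and at 46.8, 39.5 and 33.8 CPM at day 3. These groups did not overlap either. The day 3 log2 changes were 1.31 ± 0.64 with ΔNp63 and 1.09 ± 0.66 with TAp63 (adjusted p = 0.415 and 1). Leaving out the single library at 365 CPM brought the ΔNp63 comparison to an adjusted p of 0.0119 and the TAp63 comparison to 0.132. With the replicate block added, the adjusted p was 4.38e-08 and 3.09e-06, and the log2 changes were 1.33 ± 0.14 and 1.19 ± 0.14.

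AGRN, which encodes agrin, a heparan sulfate proteoglycan that binds laminin and dystroglycan, was at 426, 256 and 230 CPM at ΔNp63 day 0 and at 603, 355 and 411 CPM at day 6. Within each replicate number it was higher at day 6, and the groups overlapped. The log2 change of 0.59 ± 0.27 was not called (adjusted p = 0.508) and was called with the replicate block (adjusted p = 0.00254), as was day 3 (0.51 ± 0.27, adjusted p = 0.497 and 0.00709). AGRN in the TAp63 line was at 344, 242 and 233 CPM at day 0 and at 448, 327 and 319 CPM at day 6, a log2 change of 0.42 ± 0.27 called in the blocked 23-library fit (adjusted p = 1 and 0.00468).

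The remaining 17 tested members were called in neither fit of any comparison: ITGA1, ITGA4, ITGA9, ITGA10, ITGAV, ITGB1, ITGB3, LAMA3, LAMA4, LAMA5, LAMB2, LAMC3, COL4A2, COL17A1, NID2, DST and DAG1. Their log2 changes at ΔNp63 day 6 ran from -0.63 (ITGB3, the β3 chain of platelet and endothelial integrins) to 0.52 (ITGA1, a collagen receptor chain). At TAp63 day 6 they ran from -0.49 (LAMA4) to 1.30 (COL4A2). LAMA5, the ligand chain of BCAM, was at 105 to 157 CPM at ΔNp63 day 0 and 107 to 171 CPM at day 6 (log2 0.03 ± 0.25), and LAMB2 at 70.4 to 92.4 and 84.5 to 106 CPM (log2 0.22 ± 0.19). Counts of ITGA9, ITGB3 and LAMA4 are uncertain because an antisense or other gene covers 18.8%, 15.7% and 12.3% of their spans and the counting used no strand.

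The difference between the lines' responses (TAp63 change minus ΔNp63 change) was tested as an interaction. No member was called at day 3 or day 6 by edgeR over 24 libraries, where 0.0448% and 0.0831% of all genes were, and 2 and 5 members were under an unadjusted p of 0.05. DESeq2 called 0 members at day 3 and LAMB1 at day 6, where it called 0.135% of genes. The lowest adjusted p at day 6 was that of LAMB1, with a difference of -0.93 ± 0.21 on the log2 scale (adjusted p = 0.131), which was called with the replicate block (-0.93, adjusted p = 0.0389), a fit that called 0.166% of genes. In the blocked 23-library fit 2 members were called on each day: NID1 (-4.07, adjusted p = 0.0166) and LAMB1 (-0.65, adjusted p = 0.00727) at day 3, and LAMB1 (-0.93, adjusted p = 5.53e-05) and BCAM (-0.70, adjusted p = 0.00851) at day 6. That fit called 0.944% and 1.87% of all genes, against 5.56% of members on each day. It called 0 members and 0.171% of genes between the uninduced lines.

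For ITGA6 the difference at day 6 was 0.21 ± 0.29 and was called in neither fit (adjusted p = 1 and 0.664), so the data do not show the lines to differ in its decrease. ITGB5 differed by -0.43 ± 0.20 at day 6 (adjusted p = 1 and 0.204), and HSPG2 by -0.47 ± 0.91 (adjusted p = 1 and 0.465). Neither is shown to respond differently.

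**Figure D5:**
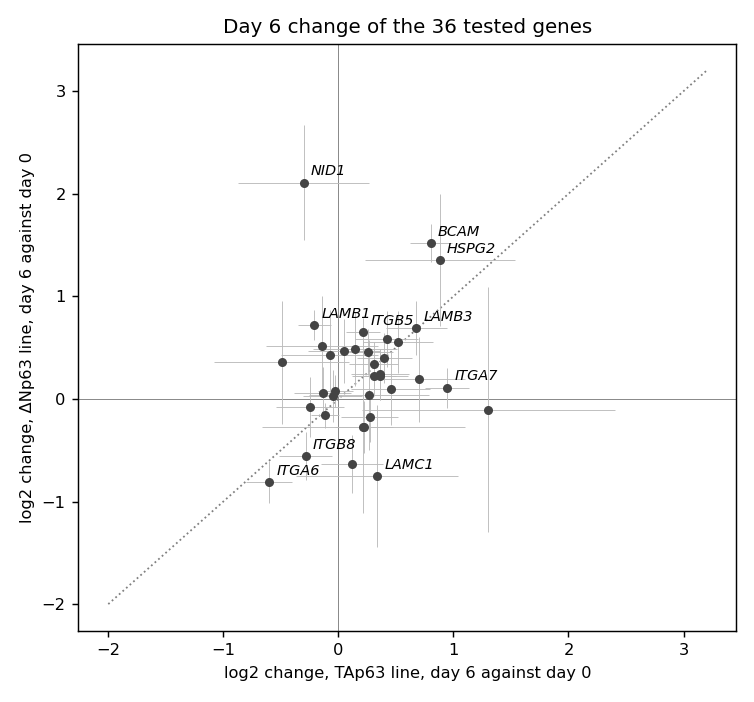
Log2 change at day 6 against day 0 in the TAp63 line (horizontal) and in the ΔNp63 line (vertical) for the 36 tested genes, with bars of 1 standard error and a dotted line where both are equal. BCAM lies at 0.80 and 1.52, ITGA6 at -0.60 and -0.81, and LAMB1 at -0.21 and 0.72.

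Other genes of the same pathways, listed by family with earlier results of these data known, were called as follows. Over all genes the 24-library fit called 0.435% and 0.441% at TAp63 days 3 and 6. At ΔNp63 days 3 and 6 it called 2.2% and 2.03%. Of 8 other integrin chains and binding proteins tested, ITGAX (the αX chain of leukocyte integrins) rose at TAp63 days 3 and 6 and at ΔNp63 day 3, with log2 changes of 1.51, 1.26 and 1.39. At ΔNp63 day 6 ITGAX, at 1.58 to 4.29 CPM, overlapped its day 0 range of 2.56 to 4.40 CPM. Its partner chain gene ITGB2 was at 0.159 to 0.906 CPM at day 0. The blocked 23-library fit called ITGA2B lower at ΔNp63 days 3 and 6 (log2 -0.35 and -0.61) and ITGAM lower at day 6 (-1.28). Of 25 integrin adaptors and focal adhesion genes, LIMS2 (PINCH-2, a partner of integrin-linked kinase) and TNS4 (a tensin family member) rose with ΔNp63 at days 3 and 6 in the 24-library fit, which called none lower. The blocked 23-library fit called 3 higher and 5 lower at day 3, among them ACTN1 and TLN1 (α-actinin-1 and talin-1) lower. It called 4 higher and 2 lower at day 6. Over all genes that fit called 23.5% at day 3 and 14.1% at day 6. LIMS2 was at 0.0656 to 0.494 CPM at day 0 and at 4.31 to 6.94 CPM at day 6 (log2 4.25 ± 0.42, adjusted p = 2.28e-06). Its change differed between the lines by -3.37 ± 0.58 at day 6 (adjusted p = 0.0222). LIMS2 overlaps GPR17, so its count is uncertain. TNS4 was at 0.656 to 1.42 CPM at day 0 and at 7.64 to 8.7 CPM at day 6 (log2 3.08 ± 0.40, adjusted p = 7.58e-05), and its difference between the lines was not called (adjusted p = 0.184).

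Of 15 further basement membrane and matrix genes, NTN4 (netrin-4, which binds laminin γ chains) rose at ΔNp63 days 3 and 6, with log2 changes of 1.30 and 1.33. FN1 (fibronectin) and MATN2 (matrilin-2) rose at ΔNp63 day 6, by 1.96 and 0.85 on the log2 scale. COL15A1 (a collagen of basement membrane zones) fell by 1.20 there. At TAp63 day 6 the 24-library fit called none of these 15. The blocked 23-library fit called FN1 (log2 1.29) and MATN2 (0.29) higher and COL15A1 (-0.42) and FRAS1 (-0.27) lower, beside 3.6% of all genes. It also called the day 6 difference between the lines for FN1 (-0.67), MATN2 (-0.56) and COL15A1 (0.79), beside 1.87% of all genes. Of 10 matrix receptors that are not integrins, SDC1 (syndecan-1) rose at ΔNp63 days 3 and 6, with log2 changes of 0.74 and 1.02. At TAp63 days 3 and 6 the 24-library fit called none of them. The blocked 23-library fit called SDC1 (log2 0.48 and 0.41), CD44, SDC2 and SDC4 higher on both days and none lower. Beside these it called 4.57% and 3.6% of all genes. It called the day 6 difference of SDC1 between the lines (-0.61). Of 11 proteases and inhibitors, ADAM9 rose at days 3 and 6 of both lines, with log2 changes from 0.65 to 0.74. None of 12 dystroglycan glycosylation genes and none of 12 collagen folding and crosslinking genes was called at days 3 or 6 by edgeR over 24 libraries, and at ΔNp63 day 6 edgeR left 1 gene of each list under an unadjusted p of 0.05. The blocked 23-library fit called POMK lower there in the former list, and 2 genes higher and 2 lower in the latter. It called 14.1% of all genes in that comparison.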

How the data were processed

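The values are the deposited integer counts of fragments per gene, which per the file headers the authors made with featureCounts 2.0.0 against an hg38 refGene annotation. The submitters' processing notes name HISAT2 2.1.0 and give featureCounts as 1.6.1. Per the file headers, fragments were summed over whole transcripts, introns included, without strand, and those over more than 1 gene were left out, which lowers counts of overlapping genes. Counts were filtered with filterByExpr, scaled with TMM and fitted over all 24 libraries as 8 group means with edgeR 4.0.16 (quasi-likelihood F test, 16 residual degrees of freedom, R 4.3.3), with Benjamini-Hochberg adjustment over all 15642 genes at 0.05. Every adjusted p in the text is from this tool unless DESeq2 1.42.0 is named. SE is that of the log2 change, and CPM is normalized by TMM.

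Library totals ran from 1530847 to 22019974 counts (median 14190000), and the listed genes held 3494 to 50306 counts per library, so genes under about 1 CPM rest on few counts. No replicate pair agreed within sampling noise (lowest chi-square per degree of freedom 5.35). Same-numbered libraries deviated together in 70 of 84 pairs (correlation over 0.1), with a median of 0.381, but not in the ΔNp63 day 1 comparison. The median for different numbers was -0.206. Deviations from a group's mean cancel within the group, so this value follows from the first and is no separate comparison. The labels state no shared culture or day for a number. Alternatives were the replicate block, leaving out libraries, no filter, only the compared libraries, DESeq2 size factors in edgeR, and DESeq2. The fit was tested on simulated data with known changes. Genes named are the listed members and the called genes of the wider lists. The members and all lists were chosen with earlier results of these data known.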

Additional observations from a re-analysis of the deposited data

Results flagged for a closer look

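For LAMB1 the TAp63 change at day 6 minus the ΔNp63 change at day 6 was -0.93 (log2). It was not called by edgeR over all 24 libraries (adjusted p = 0.131). It was called by edgeR with the replicate block (adjusted p = 0.0389), by edgeR without ΔNp63 day 1 replicate 3 (adjusted p = 0.00694), by edgeR with only the compared libraries, and by DESeq2 (adjusted p = 0.00394). All 3 ΔNp63 libraries of day 6 lay above their day 0 libraries, while the TAp63 libraries of the 2 days overlapped.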

How the results depend on the processing

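None of the 49 log2 changes followed through the alternatives reversed; small changes of members that were not called did change sign between fits, such as COL17A1 at TAp63 day 3 (-0.02 over 24 libraries and 0.02 in the blocked 23-library fit). Member calls moved most with the replicate block and with the library ΔNp63 day 1 replicate 3. At TAp63 day 3, where 0 members were called, only the compared libraries gave 1, the replicate block 1, and the block without that library 7; leaving out 1 library gave 0 to 3, with 3 when it was that library. At TAp63 day 6, where 1 was called, DESeq2 gave 2, no filter 0, the block 2 and the block without that library 9, and leaving out 1 library 0 (without any 1 of the 6 compared) to 3 (without that library). At ΔNp63 day 1, where 0 were called, DESeq2 gave 3 and leaving out 1 library 0 to 5, with 5 without replicate 1 or replicate 2 of that day. At ΔNp63 day 3, where 3 were called, only the compared libraries gave 5, the block 5, the block without that library 15, and leaving out 1 library 2 (without any 1 of the 6 compared) to 8 (without that library). At ΔNp63 day 6, where 4 were called, the block without that library gave 14 and leaving out 1 library 1 (without ΔNp63 day 0 replicate 3) to 6 (without that library). For the difference between the lines, where 0 were called, the block without that library gave 2 at day 3. At day 6 DESeq2 gave 1, only the compared libraries 1, the block 1, the block without that library 2, and leaving out 1 library 0 to 1 (without that library). Over all genes the calls went from 344 to 3712 at ΔNp63 day 3, from 318 to 2221 at ΔNp63 day 6, from 68 to 722 at TAp63 day 3 and from 69 to 568 at TAp63 day 6 with the block and without that library. The cause was not tested. The replicate block ended no member call of the fit without it. Genes at a few counts per library, such as NID1 and COL4A2, are limited by depth.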
